A study of Mus musculus with 66 samples.

Results

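The genes described here encode 7 neuropeptide precursors of the cerebral cortex: Sst (somatostatin), Npy (neuropeptide Y), Vip (vasoactive intestinal peptide), Cck (cholecystokinin), Penk (proenkephalin), Tac1 (the precursor of substance P) and Pdyn (prodynorphin). They were chosen by name, as every probe set that the array's annotation gives to these symbols, which found 8 of 45037 probe sets and 7 of 18193 genes. Tac1 had 2 probe sets and each of the others had 1. Transcripts were measured in medial prefrontal cortex on 66 Affymetrix expression arrays, each carrying RNA pooled from 4 to 5 male mice aged 10 to 12 weeks. After an intraperitoneal injection every mouse was restrained in a tube for 15 minutes, then explored a light-dark box for 10 minutes, and tissue was taken 4 hours from the injection. The groups were ethanol at 1.8 g/kg and saline in 27 BXD strains, with 1 array per strain and treatment, ethanol and saline in DBA/2J with 3 arrays each, and ethanol and saline in C57BL6/J with 3 arrays each. BXD strains are recombinant inbred lines bred from the C57BL6/J and DBA/2J progenitors, so that each carries a fixed mixture of the genomes of both. Saline-treated mice were restrained and tested like the ethanol-treated ones, so no group was left undisturbed.

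Neuropeptides are cut from larger precursors by convertases, stored in dense-core granules and released during sustained firing, after which they act on G protein-coupled receptors. In the cortex Sst, Npy, Vip and Cck mark classes of GABA interneurons: Sst cells inhibit the dendrites of pyramidal neurons, Vip cells mainly inhibit other interneurons, and many Npy cells also make Sst or belong to the neurogliaform class. Cck is also transcribed in many pyramidal neurons. Penk, Tac1 and Pdyn, which encode the enkephalins, substance P and the dynorphins, are made by scattered cortical neurons and at high levels by the projection neurons of the neighbouring striatum. The transcription of several of these genes is induced by cAMP and neuronal activity through a CREB binding site, the cAMP response element, first characterised in the rat Sst promoter.

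The promoters of the members with a match to that element are shown because the ethanol comparison below asks whether these activity-sensitive genes moved. RefSeq promoter windows of assembly GRCm38.p6, which run from 250 bases before to 50 bases after the annotated start, were matched for 6 of the 7 members. The full element TGACGTCA occurred in 588 of 32851 windows of the same table (1.79%), and its core TGACG, on either strand (CGTCA on the other), in 6837 (20.81%). The Sst window held the full element, beginning 48 bases before the start. The windows of Vip, Cck and Tac1 held the core alone, nearest to the start at 79, 47 and 43 bases before it, and Tac1 held another 197 bases before it. The windows of Npy and Pdyn held neither string, which says only that these letters are not in these windows. The stretches below run from 110 bases before the start to 10 bases after it, 5′ to 3′ on the gene's strand, and the capitals mark the matched letters. A match is a description of sequence and not evidence of binding.
Sst (chr16:23890835-23890954, minus strand): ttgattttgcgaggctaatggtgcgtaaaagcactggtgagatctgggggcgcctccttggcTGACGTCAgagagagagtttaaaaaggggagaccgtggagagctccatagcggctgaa
Vip (chr10:5639108-5639227, plus strand): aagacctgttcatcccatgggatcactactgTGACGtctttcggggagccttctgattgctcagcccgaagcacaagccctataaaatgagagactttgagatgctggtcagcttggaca
Cck (chr9:121495685-121495804, minus strand): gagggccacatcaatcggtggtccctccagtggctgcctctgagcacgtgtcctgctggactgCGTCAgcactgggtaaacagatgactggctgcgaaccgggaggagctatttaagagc
Tac1 (chr6:7554951-7555070, plus strand): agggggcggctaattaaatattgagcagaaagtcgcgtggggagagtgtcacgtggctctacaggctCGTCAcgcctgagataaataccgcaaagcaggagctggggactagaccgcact

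The deposited values are relative log2 expression levels, so a difference of 1 is a doubling, and levels of different probe sets cannot be set against each other. Array medians lay between 5.67 and 5.77, array standard deviations (SD) between 2.06 and 2.17, and no pair of arrays correlated above 0.998. The number of arrays limits the precision, and the batch of each array is not given in the labels. Of the 8 member probe sets, 7 had a mean at or above the 40th percentile of the table (log2 5.10); the exception was the dimmer Tac1 probe set (1431883_at), with a mean of 4.44. It is given apart from the brighter one (1416783_at), which stands for the gene below. Sst (1417954_at), Npy (1419127_at), Vip (1428664_at), Cck (1419473_a_at), Penk (1427038_at) and Pdyn (1416266_at) had means of 10.98, 10.90, 10.22, 12.10, 8.77 and 6.06. In tissue RNA of this kind, fewer cells of a type and less transcript per cell cannot be told apart. Differences were tested with limma across all 45037 probe sets, and a call needed a Benjamini-Hochberg adjusted p below 0.05. In the progenitors p values measure the spread between pools of mice. In the BXD ethanol comparison they measure how the ethanol minus saline difference varied between strains. The BXD strain effect was judged against the disagreement of a strain's ethanol and saline arrays.

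**Figure D1:**
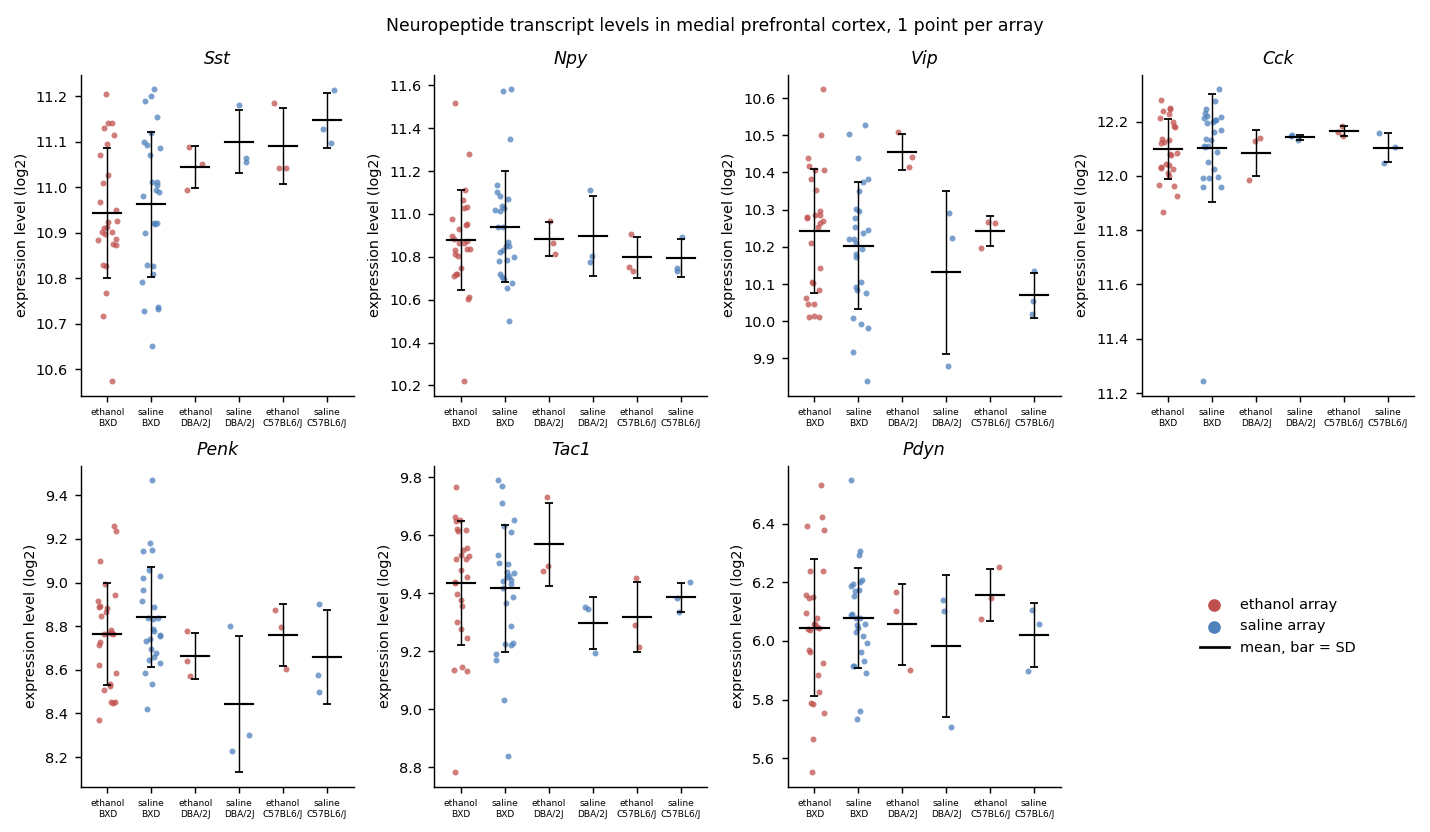
Expression level (log2, y axis) of the 7 neuropeptide genes in each group (x axis), with 1 point per array, a line at the group mean and a bar for the SD. Ethanol and saline BXD arrays overlap widely for every gene, and the lowest Cck value, 11.24, is 1 saline BXD array.

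The first question was whether the neuropeptide transcripts differed after ethanol across the BXD panel, where each strain's ethanol array was paired with its saline array. They did not pass the test: 0 of 8 member probe sets were called, against 2 of all 45037 (0.00444%), and the adjusted p of each member was 1. Of the 8, 0 also had an unadjusted p below 0.05, which 1799 of all probe sets had (3.99%). Every difference of the 7 genes was below 0.08 on the log2 scale in either direction, and 2 of the 7 were positive, as were 43.2% of all probe sets. The members' median difference was -0.02, and that of all probe sets was -0.01.

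Among the interneuron genes, Sst ranged over 27 ethanol arrays from 10.57 to 11.20 with a median of 10.91, and over 27 saline arrays from 10.65 to 11.22 with a median of 10.99. The paired difference was -0.02 (SE 0.03), with 12 of 27 strains higher after ethanol. Ethanol and saline arrays covered almost the same span. Npy ranged from 10.22 to 11.52 (median 10.86) after ethanol and from 10.50 to 11.58 (median 10.87) after saline. Its difference was -0.06 (SE 0.05), with 11 strains higher. The ethanol arrays of Npy reached lower than any saline array through the BXD02 array, at 10.22, and the next lowest was at 10.60. Vip lay between 10.01 and 10.62 (median 10.27) after ethanol and between 9.84 and 10.53 (median 10.22) after saline, a difference of 0.04 (SE 0.03) with 16 strains higher. The 95% interval of the Vip ratio ran from 0.989 to 1.07. Cck, which is also made by pyramidal neurons, ranged from 11.87 to 12.28 (median 12.09) after ethanol and from 11.24 to 12.32 (median 12.13) after saline. Its difference was 0.00 (SE 0.04), with 11 strains higher. The low end of the saline range was the BXD21 array alone, with the next at 11.96, and that strain's own ethanol array was at 12.04.

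Of the precursors shared with the striatum, Penk had the widest spread of strain differences (SD 0.33). It ranged from 8.37 to 9.26 (median 8.77) after ethanol and from 8.42 to 9.47 (median 8.79) after saline, with a difference of -0.08 (SE 0.06) and 12 strains higher. Strain differences of Penk ran in both directions, from -0.75 in BXD18 and -0.59 in BXD02 to 0.52 in BXD15 and 0.54 in BXD19. Tac1 ranged from 8.78 to 9.77 (median 9.48) after ethanol and from 8.84 to 9.79 (median 9.45) after saline, a difference of 0.02 (SE 0.04) with 13 strains higher. The ethanol range of Tac1 lay almost exactly over the saline range. Pdyn ranged from 5.55 to 6.53 (median 6.05) after ethanol and from 5.73 to 6.55 (median 6.08) after saline, a difference of -0.03 (SE 0.03) with 11 strains higher. The dim Tac1 probe set had a difference of -0.07 (SE 0.03, unadjusted p = 0.0538), opposite in sign to the bright one. Immediate early genes, whose transcripts mark recent neuronal firing, show what the paired design called elsewhere: Npas4 was higher by 0.84 (SE 0.08, limma adjusted p = 3.35e-07). It was the 1 gene called of 12 listed, of which 11 had a positive difference.

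**Figure D2:**
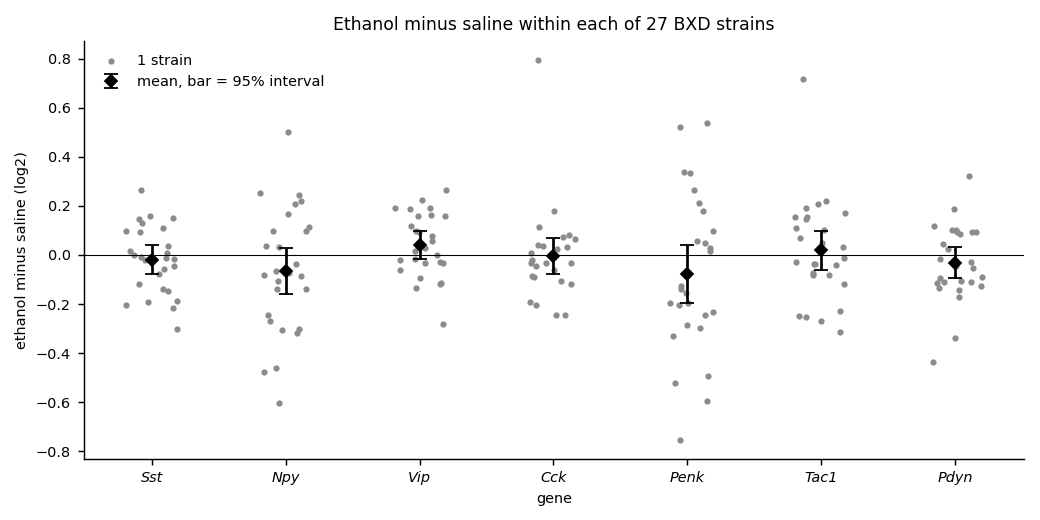
Ethanol minus saline difference of the log2 level (y axis) of each neuropeptide gene (x axis) in 27 BXD strains, 1 grey point per strain, with the mean and its 95% interval in black. Every interval holds 0, and the widest scatter of strains is that of Penk.

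In the progenitor strains the same transcripts were compared after ethanol and after saline within DBA/2J and within C57BL6/J. Averaged over both strains, 0 of 8 member probe sets were called, against 3 of 45037 (0.00666%), and 1 of 8 had an unadjusted p below 0.05, against 7.6% of all. Vip had the smallest p of the members, with an average difference of 0.25 (SE 0.07), or 1.19-fold with a 95% interval from 1.07 to 1.32. Its limma adjusted p was 0.529, so it did not pass over all probe sets. Penk, Tac1 and Pdyn had average differences of 0.16 (SE 0.10), 0.10 (SE 0.07) and 0.11 (SE 0.08), and those of Sst, Npy and Cck were -0.06, 0.00 and 0.00. Of the 7 genes 5 were positive, as were 46.5% of all probe sets, and their median was 0.10 against -0.01 over all probe sets.

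In DBA/2J, Vip was at 10.44, 10.51 and 10.42 on the ethanol arrays, against 9.88, 10.22 and 10.29 on the saline arrays. All ethanol arrays lay above all saline arrays, and the saline arrays were the more scattered. The difference was 0.32 (SE 0.10), or 1.25-fold with an interval from 1.08 to 1.45, at a limma adjusted p of 0.335. Without the lowest saline array it was 0.20, at an adjusted p of 0.764. Tac1 was at 9.48, 9.50 and 9.73 after ethanol, against 9.20, 9.35 and 9.35 after saline, again without overlap. Its difference was 0.27 (SE 0.10) at an adjusted p of 0.384. The dim Tac1 probe set did not follow it, at 4.65, 4.43 and 4.33 after ethanol and 4.68, 4.62 and 4.51 after saline, a difference of -0.14 (SE 0.10). Vip and Tac1 were the 2 of 8 member probe sets whose ethanol and saline arrays did not overlap, where 15.7% of all probe sets had none. The mean of 16 cortical interneuron markers lay between 7.81 and 7.84 on the ethanol DBA/2J arrays and between 7.62 and 7.81 on the saline ones, with 13 of 16 positive, 0 called and a median difference of 0.06; its part in the Vip difference was not tested. Among these 16 markers were Crh and Tac2, which are listed again below as other neuropeptides. Crh averaged 7.27 on the ethanol DBA/2J arrays and 6.54 on the saline ones. In the DBA/2J comparison 0 of 8 members and 0 of 45037 probe sets (0%) were called by limma, while 2 of 8 and 4589 of all (10.2%) had an unadjusted p below 0.05.

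Penk in DBA/2J was at 8.78, 8.64 and 8.57 after ethanol and at 8.23, 8.30 and 8.80 after saline, so that 1 saline array lay above every ethanol array. Its difference was 0.22 (SE 0.14). The remaining members overlapped, with differences of -0.06 for Sst, -0.01 for Npy, -0.06 for Cck and 0.07 for Pdyn (SE 0.08 to 0.12).

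In C57BL6/J, 0 of 8 member probe sets were called by limma, against 2 of 45037 (0.00444%), and 0 of 8 had an unadjusted p below 0.05, against 4.7% of all. Vip was at 10.27, 10.27 and 10.20 after ethanol and at 10.05, 10.02 and 10.14 after saline. The arrays did not overlap here either, and the difference was 0.17 (SE 0.10) at a limma adjusted p of 0.968. The interneuron markers lay between 7.67 and 7.71 after ethanol and between 7.66 and 7.73 after saline. Vip was the 1 of 8 member probe sets without overlap, against 9.57% of all probe sets. Tac1 was at 9.45, 9.21 and 9.29 after ethanol and at 9.44, 9.34 and 9.38 after saline, a difference of -0.07 (SE 0.10), with the arrays intermixed. Pdyn had a difference of 0.14 (SE 0.12), Penk of 0.10 (SE 0.14), Cck of 0.06, Sst of -0.06 and Npy of 0.01.

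Whether the strains responded differently was tested as the DBA/2J difference minus the C57BL6/J difference. By limma 0 of 8 member probe sets and 0 of 45037 (0%) were called. An unadjusted p below 0.05 was found for 1 of 8 and for 3283 of all (7.29%). Tac1 stood farthest from 0 among the members, at 0.34 (SE 0.14), with a limma adjusted p of 0.68. For Vip the responses differed by 0.15 with an interval from -0.16 to 0.46, and for Penk by 0.12 with an interval from -0.30 to 0.55. The Vip difference seen without overlap in both progenitors was 0.04 (SE 0.03) across the 27 BXD strains; the 2 designs were not tested against each other.

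**Figure D3:**
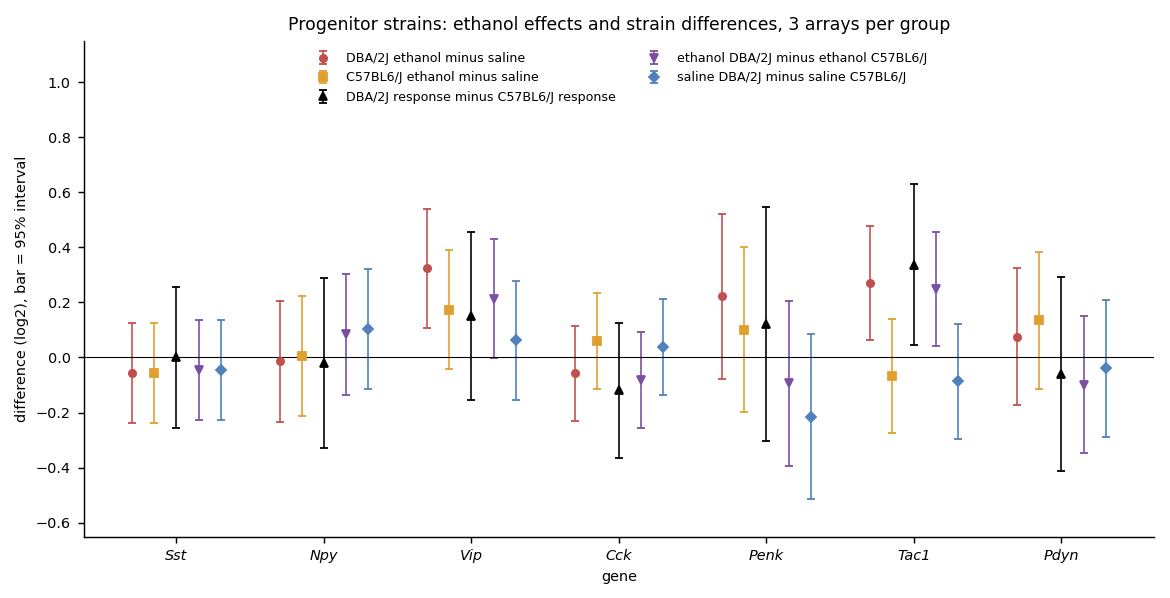
Differences of log2 level (y axis) of each neuropeptide gene (x axis) between progenitor groups of 3 arrays, with 95% intervals from limma. The ethanol minus saline differences of Vip and Tac1 in DBA/2J, the Tac1 difference of responses and the Tac1 difference of ethanol DBA/2J from ethanol C57BL6/J have intervals above 0 before adjustment, and none passed an adjusted p of 0.05.

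The progenitors were also compared with each other at the same treatment. After saline, 0 of 8 member probe sets were called between DBA/2J and C57BL6/J, against 2596 of 45037 (5.76%), and 1 of 8 had an unadjusted p below 0.05, against 19.2% of all. Of 10 markers of myelin and oligodendrocytes 8 were called lower in DBA/2J and 0 had a positive difference, with list means between 7.58 and 7.91 in DBA/2J and between 8.32 and 8.40 in C57BL6/J; their part in the differences of the members was not tested. Penk was at 8.23, 8.30 and 8.80 in saline DBA/2J and at 8.57, 8.50 and 8.90 in saline C57BL6/J, a difference of -0.21 (SE 0.14). Each strain had 1 array near 8.8 or above, so that the ranges overlapped. Npy differed by 0.10 (SE 0.10), Vip by 0.06 (SE 0.10), Tac1 by -0.09 (SE 0.10), Sst by -0.05 (SE 0.09), Pdyn by -0.04 (SE 0.12) and Cck by 0.04 (SE 0.08). The dim Tac1 probe set was at 4.68, 4.62 and 4.51 in DBA/2J and at 4.33, 4.36 and 4.31 in C57BL6/J. This was the 1 member probe set without overlap, against 24.2% of all, and its limma adjusted p was 0.12.

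After ethanol, again 0 of 8 were called, against 1943 of 45037 (4.31%), and 1 of 8 had an unadjusted p below 0.05, against 13.9% of all. Vip was at 10.44, 10.51 and 10.42 in ethanol DBA/2J and at 10.27, 10.27 and 10.20 in ethanol C57BL6/J, a difference of 0.21 (SE 0.10, limma adjusted p = 0.372). The interneuron list means lay between 7.81 and 7.84 in ethanol DBA/2J and between 7.67 and 7.71 in ethanol C57BL6/J, without overlap, with 11 of 16 markers positive and 2 called higher. The myelin list means lay between 7.77 and 7.89 in ethanol DBA/2J and between 8.11 and 8.29 in ethanol C57BL6/J, with 3 of 10 called lower. The part of either in the differences of the members was not tested. Tac1 was at 9.48, 9.50 and 9.73 in ethanol DBA/2J and at 9.45, 9.21 and 9.29 in ethanol C57BL6/J, a difference of 0.25 (SE 0.10, limma adjusted p = 0.227). Cck was at 12.13, 12.14 and 11.99 in ethanol DBA/2J and at 12.16, 12.18 and 12.15 in ethanol C57BL6/J, a difference of -0.08 (SE 0.08). In these 3 probe sets of 8 the DBA/2J and C57BL6/J arrays did not overlap, against 19% of all probe sets. Vip and Tac1 were higher in DBA/2J on every array and Cck lower, without a call.

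While ethanol and the progenitors' identity left the members without a call, the BXD strain effect was called for most of them. The progenitor comparisons rested on fewer arrays, so calls do not rank the effects. Every strain had a single array per treatment, so the strain effect measures how far a strain's ethanol and saline arrays agreed. Batches are not given in the labels, so strain and processing shared by both arrays cannot be told apart. Probe sequences were not analysed, so the same holds for transcript level and hybridisation. The strain effect was tested with a moderated F over the strain coefficients, and its size was given as the intraclass correlation, the share of variance that both arrays of a strain have in common. Of 8 member probe sets 5 were called, against 5345 of 45037 (11.9%): Pdyn, Vip, Tac1, Sst and Npy. With the brightest probe set per gene, 2688 of 13196 were called. The median intraclass correlation was 0.53 over the 7 genes and 0.12 over all probe sets, which include dim ones. Marker lists without the dim probe sets had medians nearer to that of the members. They were 0.42 for cortical interneurons, 0.42 for striatal projection neurons, 0.39 for pyramidal neurons and 0.39 for immediate early genes. For myelin and oligodendrocytes the median was 0.59, and for astrocytes 0.26. Whether the members differed from these lists was not tested. Vip repeated with a value of 0.70 (95% interval 0.44 to 0.85, limma adjusted p = 4.98e-04) and Pdyn with 0.70 (0.45 to 0.85, adjusted p = 1.27e-04). Sst followed at 0.58 (0.26 to 0.78, adjusted p = 0.0108), Tac1 at 0.53 (0.20 to 0.76, adjusted p = 0.00617) and Npy at 0.46 (0.10 to 0.71, adjusted p = 0.016).

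Cck and Penk were the genes without a call. Cck had an intraclass correlation of 0.29 (-0.09 to 0.60, limma adjusted p = 0.195), which was 0.50 without BXD21, still without a call (adjusted p = 0.137). Penk had 0.00 (-0.37 to 0.38, adjusted p = 0.564). The dim Tac1 probe set had 0.17 (adjusted p = 0.463). The Sst call was lost without BXD16 (adjusted p = 0.0699) and the Npy call without BXD18 (adjusted p = 0.073), the strains at the ends of those genes' ranges.

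**Figure D4:**
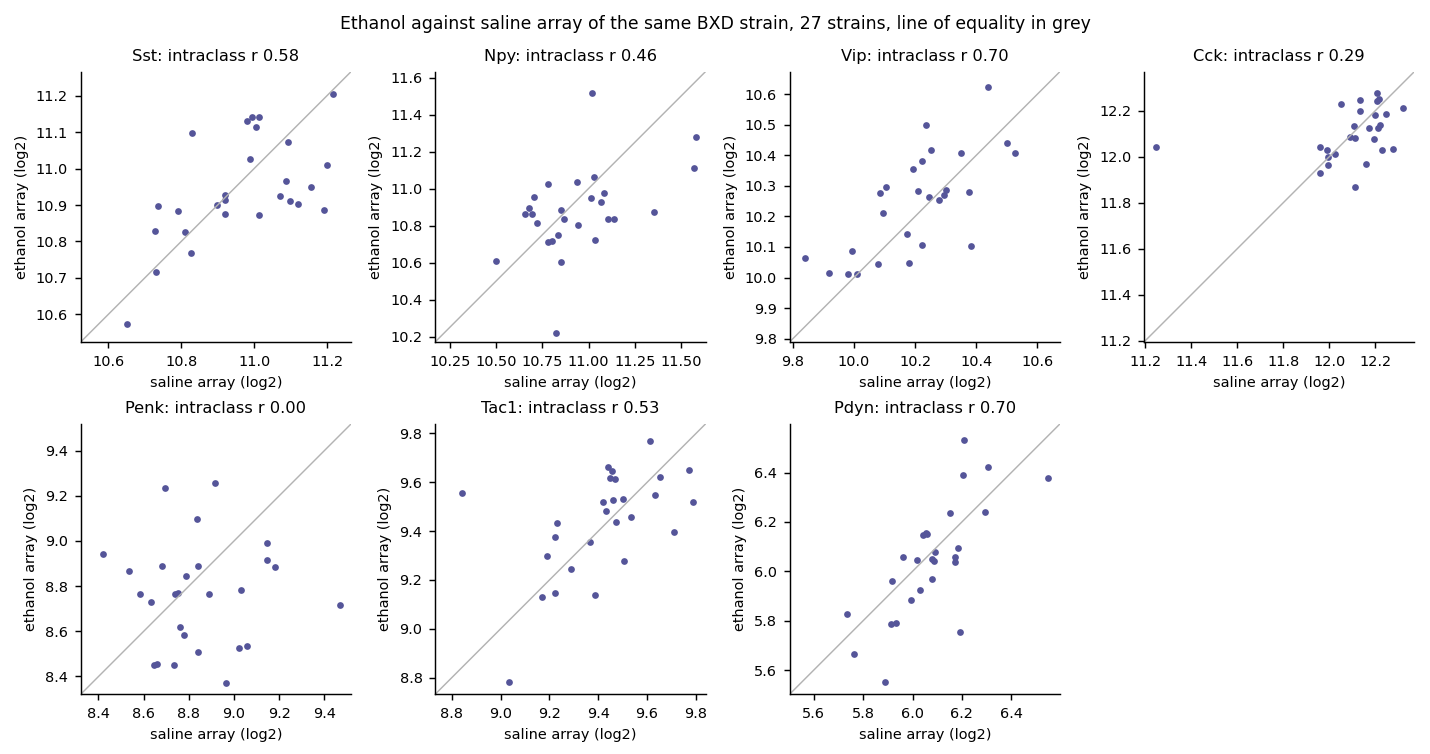
Ethanol array (y axis, log2) against saline array (x axis, log2) of the same BXD strain for each neuropeptide gene, 27 strains per panel, with the line of equality in grey and the intraclass correlation in each title. Points follow the line for Vip and Pdyn and form a cloud for Penk, and 1 strain stands far to the left for Cck.

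The mean of a strain's arrays shows how far the panel spread. Npy had the widest range, from 10.52 in BXD02 to 11.43 in BXD18, a ratio of 1.88. BXD18 was high in both treatments, at 11.28 after ethanol and 11.58 after saline. Tac1 ran from 8.91 in BXD16 to 9.71 in BXD23 (ratio 1.75), and Pdyn from 5.71 in BXD19 to 6.46 in BXD32 (ratio 1.68). Sst ran from 10.61 in BXD16 to 11.21 in BXD09 (ratio 1.51). These were also the lowest and the highest strains of Sst in each treatment separately, with BXD16 at 10.57 after ethanol and 10.65 after saline and BXD09 at 11.20 after ethanol and 11.22 after saline. Vip ran from 9.95 in BXD14 to 10.53 in BXD28 (ratio 1.49) and Penk from 8.55 in BXD36 to 9.09 in BXD18 (ratio 1.46). For Cck the ratio of 1.54, from 11.64 in BXD21 to 12.27 in BXD19, rested on the single low saline array of BXD21.

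Strains outside the range of the progenitors were counted at the same treatment, against all 6 DBA/2J and C57BL6/J arrays. For Sst, 18 of 27 BXD strains lay below all of them after ethanol and 18 after saline, with 1 strain above in each. The progenitor Sst arrays lay between 10.99 and 11.19 after ethanol and between 11.06 and 11.21 after saline, while the BXD medians were 10.91 and 10.99. At least 18 strains below in both treatments was met by 2 of 45037 probe sets (0.00444%), Sst being 1 of them; that count was set from Sst itself after its values were seen and no test was made. Whether BXD and progenitor arrays were processed together is not given in the labels, so line and processing cannot be told apart here. Strains of the other members lay outside the progenitor range in both directions. Tac1 had 15 strains above and 4 below after saline, but 1 above and 4 below after ethanol, where the progenitor arrays were spread wider. Vip had 1 above and 10 below after ethanol and 8 above and 1 below after saline. Cck had 8 above and 4 below after ethanol and 13 above and 7 below after saline. Penk had 9 above in each treatment, with 7 below after ethanol and 0 below after saline. Pdyn had 4 above and 7 below after ethanol and 10 above and 0 below after saline. Npy had 7 above after ethanol and 4 after saline, with 6 below in each.

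Pairs of members were then correlated across the 27 strains, separately in ethanol and in saline arrays, with permutation p values adjusted over 42 relations. Most pairs were positive, with a median Pearson correlation of 0.21 after ethanol and 0.22 after saline, and 3 of 42 passed. Npy and Penk correlated at 0.71 on saline arrays (permutation p = 5e-05, adjusted p = 0.0021; Spearman 0.59, p = 0.0014), and at 0.60 without the 2 strains farthest from the Npy median. On ethanol arrays their correlation was 0.51 (adjusted p = 0.0712), in the same direction, but 0.19 without the 2 strains farthest from the Npy median. Vip and Penk correlated at 0.55 on saline arrays (adjusted p = 0.0357; Spearman 0.57, p = 0.00218; 0.54 without the 2 farthest strains), and at 0.11 on ethanol arrays. With repeated quantile normalization this relation did not pass, at 0.51 (adjusted p = 0.057). Npy and Cck correlated at 0.55 on ethanol arrays (adjusted p = 0.0357; Spearman 0.42, p = 0.0325), but at 0.27 without the 2 farthest strains, so that this relation rested on those strains. The Spearman p values above are unadjusted. Adjusted over the 42 relations, the permutation p of the Spearman value was 0.292 for Npy with Cck, which did not pass. It was 0.0458 for Npy with Penk and for Vip with Penk on saline arrays. None of the 21 pairs passed in both treatments. Penk levels were not shown to repeat between the arrays of a strain (intraclass correlation 0.00, without a call). Its relations on saline arrays thus describe single arrays, and the part of strain in them was not tested. Sst and Vip, the markers of interneuron classes that contact each other, correlated at 0.34 after ethanol and 0.22 after saline, and neither passed.

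**Figure D5:**
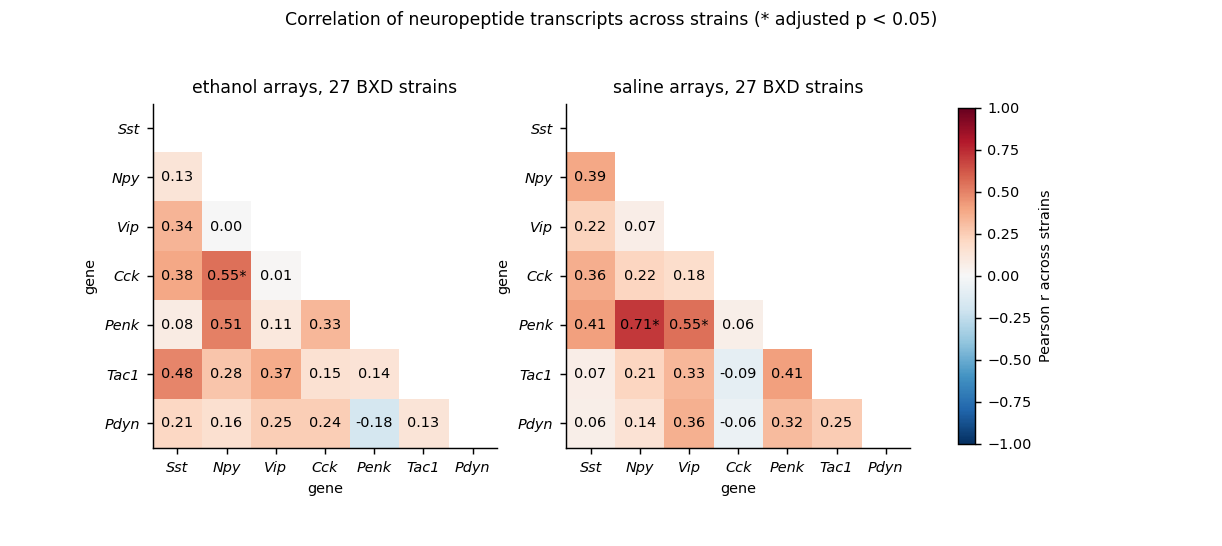
Pearson correlation across 27 BXD strains for each pair of neuropeptide genes, on ethanol arrays (left) and saline arrays (right); colour gives the correlation and an asterisk an adjusted p below 0.05 over 42 relations. The strongest is 0.71, Npy with Penk on saline arrays.

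Markers of the cells that could contribute these transcripts were set beside the members, as the mean log2 level of each list with the members removed. A listed gene was used where its brightest probe set had a mean at or above the 40th percentile of the table. Of 13 striatal projection neuron markers 11 were on the array and 9 were used. Their mean ranged from 7.44 to 7.77 on ethanol BXD arrays and from 7.51 to 7.82 on saline BXD arrays. The defining striatal markers Drd1 and Drd2, dopamine receptors, had means of 6.19 and 5.43, the second little above the 40th percentile of the table. Of 18 cortical interneuron markers 17 were on the array and 16 were used. The list means ran from 7.63 to 7.85 on ethanol BXD arrays and from 7.55 to 7.91 on saline BXD arrays. Adjusted over 84 relations, which also covered myelin and immediate early genes, 5 passed.

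Vip followed the interneuron list in both treatments, with a correlation of 0.57 after ethanol (adjusted p = 0.048; Spearman 0.52, p = 0.00646; 0.53 without the 2 farthest strains) and 0.68 after saline (adjusted p = 0.00336; Spearman 0.69, p = 1.4e-04; 0.55 without them). The ethanol minus saline difference of Npy followed that of the striatal list at 0.64 (adjusted p = 0.0118; Spearman 0.68, p = 1.2e-04; 0.70 without the 2 farthest strains). The difference of Penk followed the striatal list at 0.56 (adjusted p = 0.048; Spearman 0.56, p = 0.00268; 0.49 without them) and the interneuron list at 0.55 (adjusted p = 0.048; Spearman 0.63, p = 7.4e-04; 0.58 without them). The Spearman p values here are unadjusted. Adjusted over the 84 relations, the permutation p of the Spearman value was 0.109 for Vip after ethanol, which did not pass. For the Penk difference it was 0.0563 with the striatal list, which did not pass, and 0.0207 with the interneuron list. It was 0.00588 for Vip after saline and for the Npy difference with the striatal list. With quantile normalization, and without BXD21, the ethanol relation of Vip and both relations of Penk no longer passed. Strains with more striatal marker signal after ethanol than after saline tended to differ likewise in Npy and, with the limits above, in Penk. The differences of Tac1 and Pdyn, the other precursors shared with the striatum, correlated with the striatal list at -0.10 and 0.17, and neither passed. With the striatal mean as a covariate, the BXD ethanol difference of Penk was -0.03 and that of Npy -0.02, in place of -0.08 and -0.06, and the strain effect still called 5 member probe sets. The share of striatal tissue on each array was not measured, and its part in these relations was not tested. The members' levels were also set against the SD of each array, and 0 of 14 such relations passed; the largest was Vip on saline arrays at 0.42 (adjusted p = 0.245; Spearman 0.35, p = 0.072; 0.26 without the 2 farthest strains).

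For each member, the genes most like it across the 27 strain means were ranked among 13195 others, as a description with no test, in which all genes share the same arrays. Npy had the closest partner of all members: Vgf, the precursor of a granule protein and peptides, at a correlation of 0.78. Next for Npy were Akt1s1 at 0.72 and Mt3, a brain metallothionein, at 0.71. Penk ranked 194 among the genes most like Npy, and Npy ranked 57 among those most like Penk. Vip was closest to Ss18l1 at 0.70, Ppp4r4 at 0.70 and Dlx2 at 0.70, with Dlx1 at 0.68. Dlx1 and Dlx2 encode homeodomain factors of forebrain interneurons, and both belong to the interneuron list above. Pdyn was closest to Apaf1, a caspase activator, at 0.76, Fkbp1b at 0.75 and Ccdc3 at 0.74. Tac1 was closest to Radil and Rbp4, the retinol carrier, both at 0.67. The closest genes of Penk (Ephx2, 0.65), Sst (Mrps34, 0.64) and Cck (Ascc1, 0.64) were less alike. The Cck strain means held the low saline array of BXD21, and the ranking was not repeated without that strain. Those of Penk averaged arrays that were not shown to agree (intraclass correlation 0.00).

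The receptors, processing proteins and other neuropeptides of the same system were listed beside the members. Of 21 listed receptors 17 were measured, of 15 processing and granule proteins 14, and of 18 other neuropeptides 12. After ethanol, none of them was called in the BXD panel, in DBA/2J, in C57BL6/J or averaged over both progenitors. In the BXD panel the median differences of the 3 lists were 0.00, -0.01 and -0.01, against -0.01 over all probe sets. In DBA/2J the smallest p among the neuropeptides was that of Crh, corticotropin-releasing hormone, with a difference of 0.73 (SE 0.16, limma adjusted p = 0.28). Among the receptors it was that of Npy5r, which binds neuropeptide Y, with 0.60 (SE 0.16, adjusted p = 0.29). Neither passed, and across the BXD strains Crh differed by 0.04 (SE 0.06) and Npy5r by 0.01. Crh averaged 6.54 in saline and 7.27 in ethanol DBA/2J, against 7.36 in saline and 7.48 in ethanol C57BL6/J.

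Some partners of the members differed between the progenitors. After saline, 5.76% of all probe sets were called between DBA/2J and C57BL6/J, and 1365 of 13196 with 1 probe set per gene. Of 17 receptors 1 was called, a share near the 5.76%. It was Sstr1: this somatostatin receptor averaged 7.03 in DBA/2J and 4.49 in C57BL6/J, a difference of 2.53 (SE 0.20, limma adjusted p = 2.34e-07). The C57BL6/J level lies below the 40th percentile of the table, so the size of this difference is not exact. Of 14 processing proteins 2 were called, both higher in DBA/2J: Pam, which amidates the C-terminus of many neuropeptides, Npy, Vip, Cck and substance P among them, by 1.57 (SE 0.11, adjusted p = 3.35e-08), and Scg5, the chaperone of a prohormone convertase, by 0.91 (SE 0.09, adjusted p = 3.22e-06). Of 12 other neuropeptides 3 were called. Nppc, the precursor of C-type natriuretic peptide, was higher by 0.44 (SE 0.11, adjusted p = 0.0248), while the difference of Crh was -0.82 (SE 0.16, adjusted p = 0.00431) and that of Cort, the somatostatin relative cortistatin, was -0.38 (SE 0.10, adjusted p = 0.0304). After ethanol the differences were 2.42 for Sstr1, 1.42 for Pam and 0.92 for Scg5, each called again. Sstr2 and 3 other neuropeptides were also called. In all these were 2 of 17 receptors, 2 of 14 processing proteins and 3 of 12 other neuropeptides. Over all probe sets 4.31% were called after ethanol, and with 1 probe set per gene 954 of 13196. Sstr2, another somatostatin receptor, stood at 0.54 (SE 0.10), Tac2, the neurokinin B precursor, at 0.55 (SE 0.14), Grp, gastrin-releasing peptide, at 0.51 (SE 0.12), and Cort at -0.48 (SE 0.10). The differences of Crh, -0.21, and of Nppc, 0.28, were not called. The median of the receptors was 0.10 after saline, that of the processing proteins 0.02 and that of the other neuropeptides 0.17, against 0.04 over all probe sets. After ethanol the medians were 0.09, 0.13 and -0.05, against 0.01 over all probe sets. Each named gene had 1 probe set, and probe sequences were not analysed here, so that a difference in transcript level and one in hybridisation between the strains cannot be told apart. The same limit holds for the strain effects of these genes.

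Across the BXD strains the strain effect called 3 of 17 receptors, 3 of 14 processing proteins and 6 of 12 other neuropeptides. Over all probe sets 11.9% were called, and with the brightest probe set per gene, as in the lists, 2688 of 13196. Whether a list exceeded that share was not tested. Median intraclass correlations were 0.17, 0.34 and 0.38, against 0.12 over all probe sets, which include dim ones left out of the lists. Scg5 repeated at 0.98, Sstr1 at 0.95 and Pam at 0.93. Among the other neuropeptides Grp stood at 0.86, Cort at 0.84 and Adcyap1, the precursor of PACAP, at 0.78. Vip and Pdyn, the members with the highest value, had 0.70, and the difference from these genes was not tested. The other somatostatin receptors called were Sstr2 at 0.62 (adjusted p = 0.00299) and Sstr4 at 0.55 (adjusted p = 0.0481).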

How the data were processed

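Values were the deposited log2 expression levels of 45037 probe sets on 66 arrays, to which the authors applied RMA through the affy package, per the submitters' processing notes; the tools' versions and the genome build were not given in the sources used here. This method corrects background, equalises array distributions and summarises probes, which shrinks differences of dim probe sets. The platform annotation gave 34945 probe sets 1 symbol, 932 several and 9160 none. For 34741 the symbol was taken from RefSeq by Entrez identifier, whether or not it changed.

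Differences were tested two-sided with limma 3.58.1 in R 4.3.3 (lmFit, eBayes) on every probe set without a filter, adjusted over all. The BXD fit blocked on strain (26 residual degrees of freedom); the progenitor fit had 12 arrays (8 residual degrees of freedom). Correlations used 100000 permutations (scipy 1.17.1), also adjusted by Benjamini-Hochberg. Each test was checked on simulated data. All members were named; outside them, genes came from fixed lists, by p or, for likeness, by correlation (the 5 highest per member). Arrays with identical strain labels were paired in the BXD panel. Members, lists and tests were chosen with earlier results of these data known. Alternatives are given in the closing section; no array was left out.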

Additional observations from a re-analysis of the deposited data

How the results depend on the processing

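No member was called in any ethanol or progenitor comparison under any of the settings tried, and 5 were called for the strain effect in every setting that kept all strains. Those settings were the 40th percentile filter, 1 probe set per gene, median centring, repeated quantile normalization, a trended robust prior, the striatal mean as a covariate and, added after seeing the data for the BXD fits, the array SD as a covariate; all 66 arrays in 1 fit was run for the progenitor comparisons alone. Over 917 differences the smallest adjusted p was 0.104. In the progenitors, same-numbered arrays did not deviate together (correlations from -0.155 to 0.225), so the paired fit is given here only: with the replicate block it called 0 members, and the BXD fit with no replicate block called 0. Relations of members with marker lists past the threshold numbered 8 with median centring, 2 with quantile normalization and 2 without BXD21, in place of 5; the cause was not tested. The 3 lost with quantile normalization and without BXD21 were Vip with the interneuron list after ethanol (adjusted p = 0.121 and 0.0535) and the differences of Penk with the striatal list (0.181 and 0.0535) and with the interneuron list (0.181 and 0.0647).

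Counts over all probe sets moved by more than 1.5 times in some settings. In DBA/2J 0 became 5 with the trended prior, 1 with the striatal covariate and 20 with all 66 arrays, and in C57BL6/J 2 became 1 with 1 probe set per gene and 0 with quantile normalization, the striatal covariate, the replicate block or all 66 arrays. The progenitor average gave 2 to 6 in place of 3, and the BXD panel 1 to 4 in place of 2. With 1 probe set per gene, which tests 13196, the count between saline progenitors was 1365 in place of 2596, between ethanol progenitors 954 in place of 1943, and for the strain effect 2688 in place of 5345; between saline progenitors the striatal covariate gave 1113. Median centring turned the split there into 725 higher and 1876 lower, in place of 1008 and 1588.

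Small differences changed sign, at an adjusted p of 0.747 or more, as did the Penk intraclass correlation, at 0.569 or more. With median centring the values were 0.0007 for Cck in the BXD panel, 0.0119 for Npy in DBA/2J, -0.0178 for Npy in C57BL6/J, 0.0297 for the Npy difference of responses, -0.0042 for Cck between saline progenitors and -0.0412 for the Penk intraclass correlation. With quantile normalization they were 0.0092 for Cck in the BXD panel, 0.0142 for Npy averaged over the progenitors and -0.0229 for the Sst difference of responses. With the striatal covariate they were 0.0003 (Cck, BXD), -0.0119 (Cck, progenitor average), 0.0286 (Npy, DBA/2J), -0.1102, -0.0912 and 0.0276 (Npy, Penk and Tac1, C57BL6/J), 0.1388 (Npy, difference of responses), and -0.0247, -0.0325, -0.0093 and 0.0175 (Npy, Vip, Cck and Tac1, between saline progenitors).

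Leaving out 1 array or strain gave, among results that changed sign, -0.0334 to 0.0066 for Cck and -0.0082 to 0.0314 for Tac1 in the BXD panel, -0.0353 to 0.0497 for Npy and -0.0126 to 0.0258 for Cck averaged over the progenitors, -0.0759 to 0.094 for Npy and -0.0638 to 0.1538 for Pdyn in DBA/2J, and -0.0495 to 0.0561 for Npy in C57BL6/J. The ranges of the differences of responses were -0.0331 to 0.0485 for Sst, -0.0813 to 0.0887 for Npy, -0.0018 to 0.2994 for Penk and -0.1995 to 0.0181 for Pdyn. Between saline progenitors they were -0.0048 to 0.1651 for Npy, -0.0175 to 0.1872 for Vip and -0.1178 to 0.0998 for Pdyn, between ethanol progenitors -0.07 to 0.0021 for Sst, and for the Penk intraclass correlation -0.0499 to 0.0653.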

Other observations

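A few BXD arrays held the end of the range for several neuropeptide genes. The ethanol array of BXD01 was the highest of 27 for Npy (11.52), Cck (12.28), Penk (9.26) and Pdyn (6.53), and the ethanol array of BXD02 was the lowest for Npy (10.22), Cck (11.87) and Penk (8.37). The saline array of BXD14 was the lowest for Vip (9.84), Tac1 (8.84) and Pdyn (5.73), and its SD over all probe sets, 2.06, was the lowest of the 66 arrays. On the ethanol array of the same strain Tac1 was at 9.56, against a median of 9.48 over the ethanol BXD arrays.

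The saline array of BXD18 was the highest for Npy (11.58) and Penk (9.47). Its ethanol array was the second highest for Npy (11.28), whereas Penk was at 8.72 there. The saline array of BXD21 stood apart for Cck alone, at 11.24 against 11.96 for the next lowest strain, while Sst in that strain was low in both treatments, at 10.72 after ethanol and 10.73 after saline.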
